A study of Mus musculus with 21 samples.

Results

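The 10 genes described here, Atf3, Atf4, Atf5, Ddit3, Chac1, Trib3, Asns, Sesn2, Ddit4 and Ppp1r15a, are commonly measured transcripts of the integrated stress response. They were taken by symbol from the 48474 rows of a gene count table of mouse neocortex, and all 10 passed the filter on low counts that left 18248 genes for testing. Bulk poly-A mRNA was sequenced from 21 mice, of which 10 were rNLS8 mice and 11 were controls that the labels call wild type (WT) and that were littermates carrying a single transgene. The rNLS8 mice carried a NEFH-tTA driver and a tetO responder for human TDP-43 lacking its nuclear localisation signal (TDP-43ΔNLS), so that the transgene was expressed almost only in neurons once doxycycline was withdrawn. Mice of both genotypes were 17 to 19 weeks old, had been injected into the cerebral ventricle with a control oligonucleotide without a target (350 µg in a volume of 10 µL), and had been kept on 200 mg/kg doxycycline diet until 2 weeks after the injection. Tissue was taken after 3 weeks of transgene expression, so every value below was measured in mice that had also been injected with an oligonucleotide. The mice came in cohort A (4 WT and 3 rNLS8) and cohort B (7 WT and 7 rNLS8), and each library was a separate animal.

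The integrated stress response begins when 1 of a small family of kinases phosphorylates the translation initiation factor eIF2α. General translation then slows, while a few mRNAs with upstream open reading frames, Atf4 among them, are translated more. ATF4 is a bZIP transcription factor that binds CCAAT-enhancer-binding protein and ATF response elements (CARE), and its targets include further transcription factors, amino acid enzymes and transporters, and feedback inhibitors of the response. The response has been studied widely in neurons under protein misfolding stress, and the comparison of genotypes asks how its transcripts stood in neocortex that expressed cytoplasmic TDP-43. Only mRNA was measured here, not eIF2α phosphorylation or protein.

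Library totals ran from 20700912 to 22263809 counts, so depth hardly differed between mice. Counts assigned to Tardbp ranged from 2253 to 2827 normalised counts in WT and from 2363 to 5053 in rNLS8 mice (log2 fold change 0.62). The log2 fold change was 0.79 in cohort B (edgeR adjusted p = 1.42e-10) and 0.26 in cohort A (edgeR adjusted p = 0.191), with an interaction unadjusted p of 7.31e-06 and an adjusted p of 0.133 (edgeR). Whether reads of the human transgene were counted there was not tested. The library labelled rNLS8 mouse 9 lay within the WT range (2363) and below it in a further row of the gene (1477 against 1577 to 1929 in WT), while the other 9 lay above the WT range in both rows, so this is only a partial check of the labels, and not one that cohort A passed on its own. Of 4 pan-neuronal markers, Snap25 and Syt1 fell in rNLS8 mice (log2 fold changes -0.75 and -0.53), Rbfox3 and Tubb3 gave -0.10 and -0.06 (edgeR adjusted p = 0.189 and 0.499), and their summed level, most of it from Snap25 and Syt1, was 75469 to 100704 normalised counts in WT against 48031 to 67561 in rNLS8 mice. All 6 genes of an interferon response list rose, with a median log2 fold change of 3.09 and a summed level of 706 to 1014 normalised counts in WT against 1894 to 8310 in rNLS8 mice. All 3 inhibitory neuron markers fell, with log2 fold changes of -0.45 (Gad1), -0.32 (Gad2) and -0.35 (Slc32a1) and sums of 9227 to 18338 in WT and 6627 to 13157 in rNLS8 mice. Markers of excitatory cortical neurons, of which 1 of 6 rose and 1 fell, were abundant, with sums of 30993 to 45925 in WT and 33191 to 52097 in rNLS8 mice, and hindbrain Hox genes were near 0. Most of the excitatory sum came from Slc17a7 (mean 31930 in WT and 32987 in rNLS8 mice), and the median log2 fold change of the 6 markers was -0.11. Of 5 microglial markers 3 rose and 1 fell, with sums of 4357 to 5029 and 4284 to 5655, and of 4 astrocyte markers Gfap rose and 3 fell. Choroid plexus transcripts varied from 287 to 45663 in WT and from 503 to 23534 in rNLS8 mice, with none of the 3 called. Of 3 striatal markers Drd1 fell (log2 fold change -0.66, edgeR adjusted p = 0.0362) and was lower in cohort A (-0.97), with sums of 425 to 4659 in WT and 467 to 4127 in rNLS8 mice. Of 3 endothelial markers Flt1 fell (-0.17), with sums of 2847 to 3425 and 2430 to 3111. The part of these differences in the results was not tested. The deviation of a gene from the mean of the other mice of its genotype, not centred on cohort, was set against exonic length. It followed length most strongly in rNLS8 mouse 9 (Spearman rho -0.48 across 16149 genes, against -0.18 to 0.33 in the other 20 mice). In WT mice rho was -0.18 to -0.13 in cohort A and -0.004 to 0.22 in cohort B.

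The promoter windows of RefSeq (GRCm38.p6, 250 bases before to 50 after the start) were searched on both strands for the CARE core TGATGNAA, whose reverse complement is TTNCATCA. The core lay in the windows of 4 of the 10 genes, Atf3, Chac1, Asns and Trib3, and in 3.97% of all 32851 windows. The stretches with the match are shown for the genes with the largest rise (Atf3 and Chac1) and for Asns, the amino acid enzyme among the 10. Each reads 5′ to 3′ on the strand of the gene, and capitals mark the core.
Chac1 (chr2:119350992-119351191, plus strand, core at -193 to -186): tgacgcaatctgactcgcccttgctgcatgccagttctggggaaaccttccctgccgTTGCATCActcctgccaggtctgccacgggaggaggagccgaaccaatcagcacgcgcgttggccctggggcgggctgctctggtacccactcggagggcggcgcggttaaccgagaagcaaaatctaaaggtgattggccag
Atf3 (chr1:191183384-191183533, minus strand, core at -110 to -103): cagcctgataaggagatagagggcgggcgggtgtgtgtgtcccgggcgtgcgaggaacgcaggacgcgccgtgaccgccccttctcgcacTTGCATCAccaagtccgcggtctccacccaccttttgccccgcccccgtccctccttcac
Asns (chr6:7693214-7693243, minus strand, core at -23 to -16): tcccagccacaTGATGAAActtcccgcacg
In Trib3 the core TTACATCA lay downstream of the start, at 15 to 22. The CRE motif TGACGTCA, a palindrome that ATF and CREB factors bind, was present in Ppp1r15a at -12 to -5 and in 1.79% of all windows. A match is a description of the letters in the window, and the files hold no binding data.

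Of the 10 genes, 9 were higher in rNLS8 than in WT mice, none was lower and 1 (Ddit4) did not pass the test (edgeR quasi-likelihood test with cohort as covariate, Benjamini-Hochberg adjusted p below 0.05 over 18248 genes). The median log2 fold change of the 10 genes was 1.10, while the median over all tested genes was -0.000675. The background was large, since 44.7% of the tested genes were called in the same comparison, 23.0% higher and 21.7% lower. In 7 of the 10 genes (Atf3, Atf4, Ddit3, Chac1, Trib3, Asns and Sesn2) every rNLS8 mouse lay above every WT mouse, an arrangement that 3.85% of the tested genes showed. None of the 10 had every rNLS8 mouse below every WT mouse, as 3.80% of the tested genes did. Cells that lose RNA and a tissue that loses cells of a type cannot be told apart in bulk tissue, and the neuronal markers stand beside these values: 2 of 4 pan-neuronal and 3 of 3 inhibitory markers fell, while 1 of 6 excitatory markers fell and 1 rose. The part of these differences in the values of the 10 genes was not tested.

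**Figure D1:**
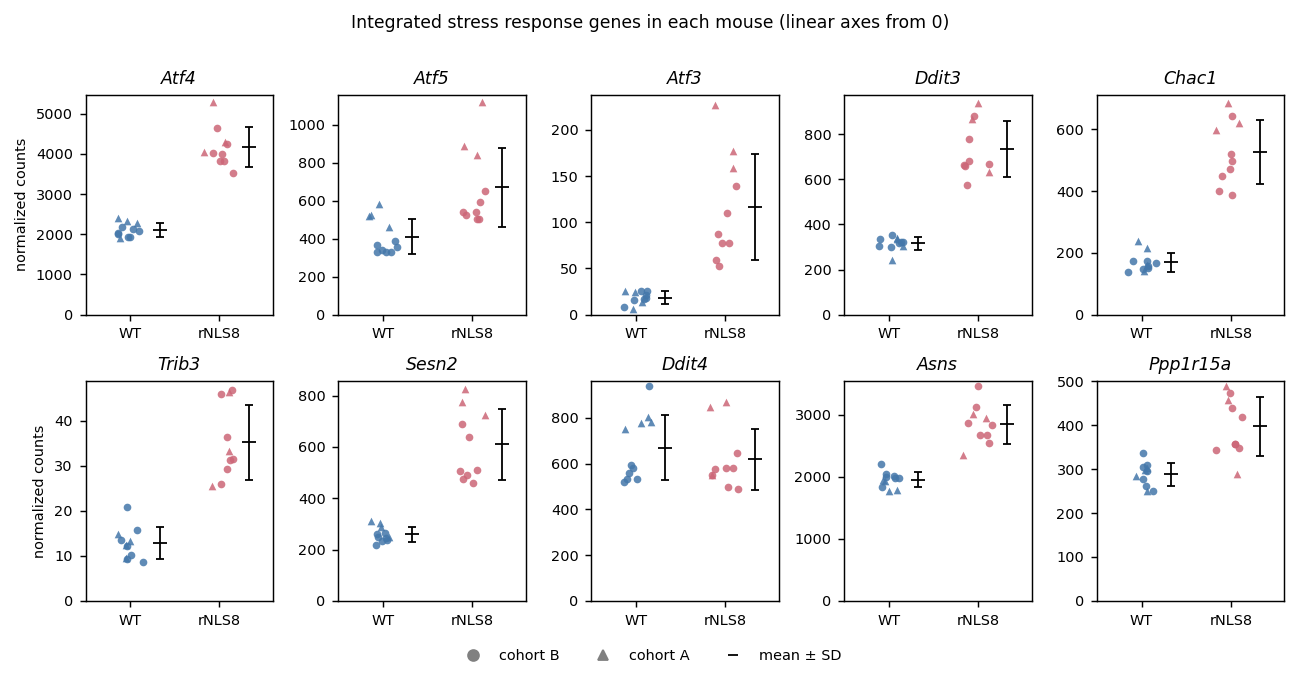
Normalised counts of the 10 genes (vertical axes, linear) in each of the 11 WT mice (blue) and 10 rNLS8 mice (red), with cohort A as triangles, cohort B as circles and bars for the mean and SD. The groups are apart in 7 panels, meet in Atf5 and Ppp1r15a, and cover the same range in Ddit4.

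Among the transcription factors, Atf4 encodes the central activator of the response. Its level in WT mice was 1911 to 2399 normalised counts with a median of 2089, and in rNLS8 mice it was 3525 to 5298 with a median of 4034. The groups did not overlap, and the lowest rNLS8 mouse stood well above the highest WT mouse. The mean was 2110 ± 170 (SD, n = 11) in WT and 4171 ± 499 (SD, n = 10) in rNLS8 mice, a 1.99-fold rise (95% interval 1.85 to 2.14; log2 fold change 0.99, SE 0.054, edgeR adjusted p = 9.36e-13). Atf4 lies at chr15:80255184-80257545 on the plus strand.

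Atf3, an immediate stress-induced bZIP factor that is also known as a marker of injured neurons, showed the largest rise of the 10 genes. It was low in WT mice, at 6.26 to 25.7 normalised counts with a median of 17.7, and reached 52.9 to 227 with a median of 98.8 in rNLS8 mice. Every rNLS8 mouse was above the WT range, and the 3 rNLS8 mice of cohort A (159, 177 and 227) were the highest of all. The rise was 6.19-fold (95% interval 4.52 to 8.48; log2 fold change 2.63, SE 0.23, edgeR adjusted p = 2.35e-09), which ranked 28 among the 18248 tested genes. The spread was wide in both groups, with a coefficient of variation of 37.8% in WT mice, where the counts were lowest, and 49.0% in rNLS8 mice. Atf3 lies at chr1:191170296-191183333 on the minus strand.

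Ddit3 encodes CHOP, a bZIP factor that ATF4 induces and that is linked to cell death under lasting stress. WT mice had 243 to 355 normalised counts with a median of 321, and rNLS8 mice had 573 to 939 with a median of 673. The groups were widely separated and WT mice lay close together. The rise was 2.32-fold (95% interval 2.08 to 2.59; log2 fold change 1.22, SE 0.081, edgeR adjusted p = 2.12e-11). Ddit3 (chr10:127290793-127296291, plus strand) has 68 exonic bases within Mars1, on the opposite strand, and overlaps the RefSeq span of Mbd6 by 77 bases, and whether reads were counted by strand was not given in the sources used here.

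Atf5, a close relative of ATF4 that is tied to mitochondrial stress, differed between the cohorts as well as between the genotypes. WT mice had 328 to 585 normalised counts with a median of 368, and rNLS8 mice had 503 to 1119 with a median of 567. These ranges overlapped, and 5 of 10 rNLS8 mice lay above every WT mouse. Within each cohort they did not: in cohort A, WT mice had 460 to 585 and rNLS8 mice 841 to 1119, and in cohort B the values were 328 to 388 and 503 to 653. With cohort in the model Atf5 rose 1.66-fold (95% interval 1.52 to 1.80; log2 fold change 0.73, SE 0.062, edgeR adjusted p = 1.33e-09). Atf5 (chr7:44812256-44816658, minus strand) has 257 exonic bases within Nup62 and Il4i1, both on the opposite strand.

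Among the effector genes, Chac1 encodes a γ-glutamylcyclotransferase that breaks down glutathione and is a well-known target of the ATF4 and CHOP arm. It had 138 to 239 normalised counts in WT mice with a median of 159, and 387 to 684 in rNLS8 mice with a median of 508. No rNLS8 mouse came near the WT range. The rise was 3.14-fold (95% interval 2.77 to 3.56; log2 fold change 1.65, SE 0.092, edgeR adjusted p = 1.38e-12), the largest after Atf3. Chac1 lies at chr2:119351242-119354326 on the plus strand.

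Trib3, a pseudokinase that binds AKT and ATF4 and acts as a feedback inhibitor, had few counts in every mouse. WT mice had 8.57 to 20.9 normalised counts with a median of 12.5, and rNLS8 mice had 25.5 to 46.9 with a median of 32.4. The groups did not overlap in spite of the low counts. The rise was 2.74-fold (95% interval 2.19 to 3.41; log2 fold change 1.45, SE 0.16, edgeR adjusted p = 1.03e-07). Trib3 lies at chr2:152337425-152344060 on the minus strand.

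Sesn2 and Ddit4 both encode stress-induced inhibitors of mTORC1, and they did not move alike. Sesn2, which senses leucine, had 217 to 310 normalised counts in WT mice with a median of 249, and 459 to 826 in rNLS8 mice with a median of 576. Its groups were apart, and the rise was 2.36-fold (95% interval 2.14 to 2.61; log2 fold change 1.24, SE 0.074, edgeR adjusted p = 3.75e-12). Ddit4, which encodes REDD1, had 519 to 938 normalised counts in WT mice with a median of 596, and 488 to 869 in rNLS8 mice with a median of 578. Of the rNLS8 mice, 8 lay within the WT range and 2 below it, but that range was set by cohort and by WT mouse 5. In cohort A the 4 WT mice had 750 to 803 normalised counts and the rNLS8 mice 550, 847 and 869, so 1 lay below and 2 above. In cohort B the WT mice had 519 to 596 apart from mouse 5 at 938, and the rNLS8 mice had 488 to 646. The fitted ratio of rNLS8 to WT was 0.937 (95% interval 0.825 to 1.06; log2 fold change -0.09, SE 0.093, edgeR adjusted p = 0.440), an interval that lies below that of each of the other 9 genes. Without WT mouse 5 the log2 fold change was -0.00064. Ddit4 was also among the most variable in WT mice, with a coefficient of variation of 21.3%, and it is a glucocorticoid-responsive gene as well. Of 6 genes of a glucocorticoid response list 3 were higher in rNLS8 mice, as were 23.0% of all tested genes. These were Cdkn1a, Zbtb16 and Tsc22d3 (log2 fold changes 0.90, 0.37 and 0.23), the last also on the list of other ATF4 and CHOP targets given below. Fkbp5, Sgk1 and Per1 gave 0.03, 0.14 and 0.11 and did not pass (edgeR adjusted p = 0.748, 0.381 and 0.443). The part of these genes in the level of Ddit4 was not tested. Sesn2 lies at chr4:132492804-132510456 and Ddit4 at chr10:59949675-59951770, both on the minus strand.

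Asns, asparagine synthetase, makes asparagine from aspartate and glutamine and is a classical ATF4 target. It was abundant, with 1779 to 2210 normalised counts in WT mice and a median of 1981, and 2350 to 3462 in rNLS8 mice with a median of 2854. Although its rise was modest, the groups did not overlap, since the WT mice varied little (coefficient of variation 6.42%). The rise was 1.45-fold (95% interval 1.35 to 1.56; log2 fold change 0.54, SE 0.054, edgeR adjusted p = 1.57e-08). Asns lies at chr6:7675165-7693209 on the minus strand.

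Ppp1r15a encodes GADD34, the stress-induced subunit that directs protein phosphatase 1 to eIF2α and so ends the response. WT mice had 251 to 337 normalised counts with a median of 295, and rNLS8 mice had 288 to 488 with a median of 388. Of the rNLS8 mice 9 lay above every WT mouse, and rNLS8 mouse 10 lay within the WT range. The rise was 1.38-fold (95% interval 1.23 to 1.54; log2 fold change 0.46, SE 0.083, edgeR adjusted p = 6.94e-05), the smallest among the called genes. Ppp1r15a (chr7:45522917-45526268, minus strand) has 407 exonic bases within Tulp2 on the opposite strand.

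Levels can be set side by side between genes once divided by exonic length. On the scale of CPM per exonic kilobase, mean levels in WT mice were highest for Atf4 (41.9) and Asns (33.5), followed by Ddit4 (17.9), Atf5 (9.68), Ddit3 (8.64), Chac1 (4.84), Ppp1r15a (4.60), Sesn2 (3.50), Atf3 (0.398) and Trib3 (0.282). The pairs Atf5 and Ddit3, Chac1 and Ppp1r15a, and Atf3 and Trib3 were not separated beyond their spread, each keeping its order in 6 of 11 mice. In rNLS8 mice the mean levels per kilobase were 82.8 for Atf4, 48.8 for Asns, 20.0 for Ddit3, 16.5 for Ddit4, 15.8 for Atf5, 15.1 for Chac1, 8.22 for Sesn2, 6.33 for Ppp1r15a, 2.54 for Atf3 and 0.777 for Trib3. Ddit3 thus stood above Ddit4 and Sesn2 above Ppp1r15a in all 10 rNLS8 mice, though by less than the sum of their SDs, while in the WT means both orders were the other way. Ddit4, Atf5 and Chac1 could not be put in order in rNLS8 mice. Atf4 and Asns kept the top places in every mouse of both genotypes.

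The comparison was repeated within each cohort, because 23.3% of the tested genes differed between the cohorts with genotype in the model. Of the 10 genes, 5 were higher in cohort A, where 12.6% of all tested genes were: Atf3, Atf5, Sesn2, Ddit4 and Chac1, with log2 differences of 0.69, 0.68, 0.38, 0.39 and 0.33. The labels do not say how the cohorts differed. In cohort B alone, 9 of the 10 genes rose in rNLS8 mice and none fell, where 39.1% of the tested genes were called, 19.3% higher and 19.8% lower, and log2 fold changes ran from 0.42 for Ppp1r15a to 2.18 for Atf3. In cohort A alone, with 4 WT and 3 rNLS8 mice, 8 of the 10 genes rose and none fell, where 11.8% of the tested genes were called, 6.99% higher and 4.83% lower. There the log2 fold change of Ppp1r15a was 0.56 (edgeR adjusted p = 0.0619) and that of Ddit4 was -0.02 (edgeR adjusted p = 0.966).

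**Figure D2:**
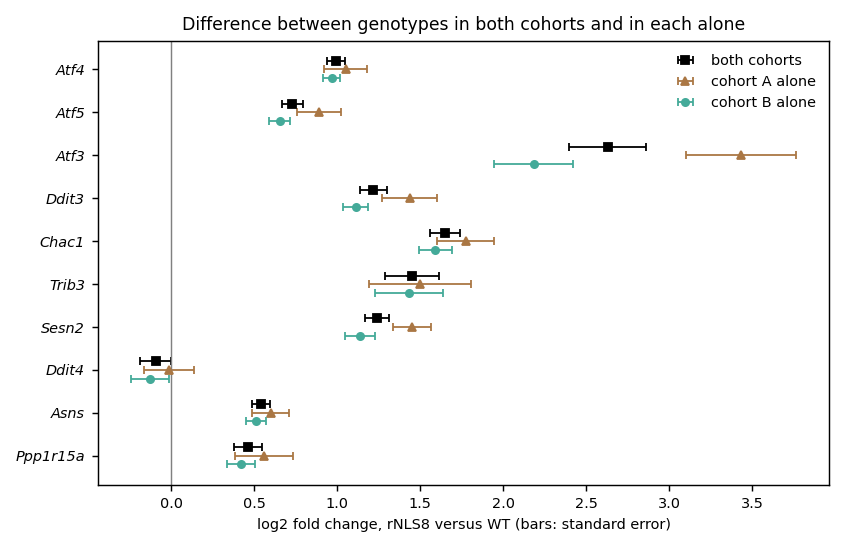
Log2 fold change of rNLS8 over WT mice for each of the 10 genes (horizontal axis, bars for the SE), fitted over both cohorts, in cohort A alone and in cohort B alone. Ddit4 lies at or just below 0 in each fit, and for Atf3 the estimate is 3.43 in cohort A and 2.18 in cohort B.

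The test of the difference between the cohorts called 0% of the tested genes (edgeR interaction of genotype and cohort), with 1030 genes at an unadjusted p below 0.05, and so none of the 10. The largest difference among the 10 genes was that of Atf3, whose log2 fold change was 1.22 higher in cohort A (SE 0.44, edgeR unadjusted p = 0.0109, adjusted p = 0.853). For the remaining 9 genes the difference was between 0.04 (Trib3) and 0.30 (Ddit3) on the log2 scale. The SE of this difference was 0.12 to 0.20 for these genes apart from Trib3, which has low counts and an SE of 0.36.

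The rNLS8 mice also differed among themselves. Relative to the WT mean of its own cohort, mouse 9 of cohort A was the highest rNLS8 mouse for 5 of the 9 called genes (Atf4, Atf5, Ddit3, Sesn2 and Ppp1r15a), and mouse 2 of cohort B for 3 (Chac1, Trib3 and Asns). Mice 2 and 9 were each among the top 3 for 8 genes and mouse 8 for 6, though for Sesn2 mice 9 and 2 were close. Mouse 8 had the highest Atf3 but the lowest Asns, so the order was not the same for every gene. Mouse 7 was the lowest for Ddit3 and Chac1, and mouse 1 was the lowest for Atf3 and Atf5 and among the bottom 3 for 6 genes. Mouse 9 also stood apart in the relation with exonic length given above, and in its Tardbp counts, and the part of this in its high values was not tested. Without mouse 9, and without mice 1, 8 and 9 together, the same number of genes (9 of 10) rose.

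**Figure D3:**
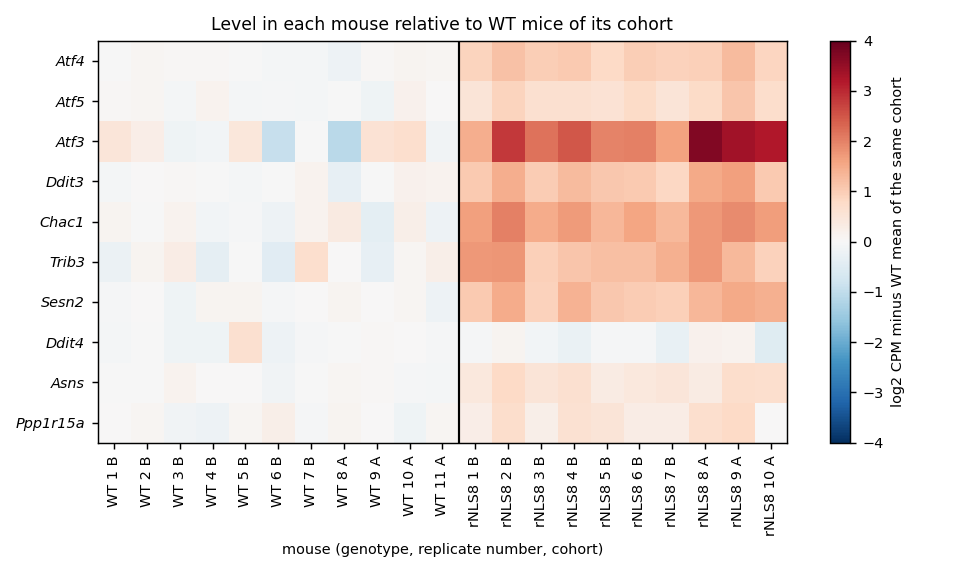
Level of each of the 10 genes (rows) in each of the 21 mice (columns, by genotype and cohort), drawn as log2 CPM minus the mean of the WT mice of the same cohort. In 9 of the rows the rNLS8 columns are higher, and the row of Ddit4 shows no such block.

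Whether the genes moved together from mouse to mouse was described by correlating each of the 45 pairs within a genotype, on log2 values centred on the cohort. In rNLS8 mice, 43 of 45 pairs were positive, with a median Pearson r of 0.617 and a range of -0.174 to 0.913. In WT mice, 22 of 45 were positive, with a median r of -0.04 and a range of -0.466 to 0.709. None of the 90 pairs passed the Benjamini-Hochberg adjustment (permutation test within cohort, two-sided), while 16 rNLS8 pairs and 1 WT pair had an unadjusted p below 0.05. The difference between the genotypes was not tested.

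The highest correlation in rNLS8 mice was that of Ddit3 with Ppp1r15a, a factor and the phosphatase subunit it is known to induce (Pearson r = 0.913, Spearman rho = 0.939, n = 10, permutation p = 0.00083, adjusted p = 0.0747). It was 0.851 without the 2 mice farthest from the median of Ddit3. Among pairs of transcription factors, Atf4 with Atf5 had an r of 0.898 (rho = 0.818, n = 10, permutation p = 0.0042, adjusted p = 0.0945), and r was 0.636 without the 2 farthest mice. Without the 2 mice farthest from the median, pairs with r above 0.5 went from 28 to 13 in rNLS8 mice and from 2 to 7 in WT mice, and leaving out the farthest mice narrows the range of values. The points of a pair are the same mice, and both genes share the library and size factor of their mouse.

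**Figure D4:**
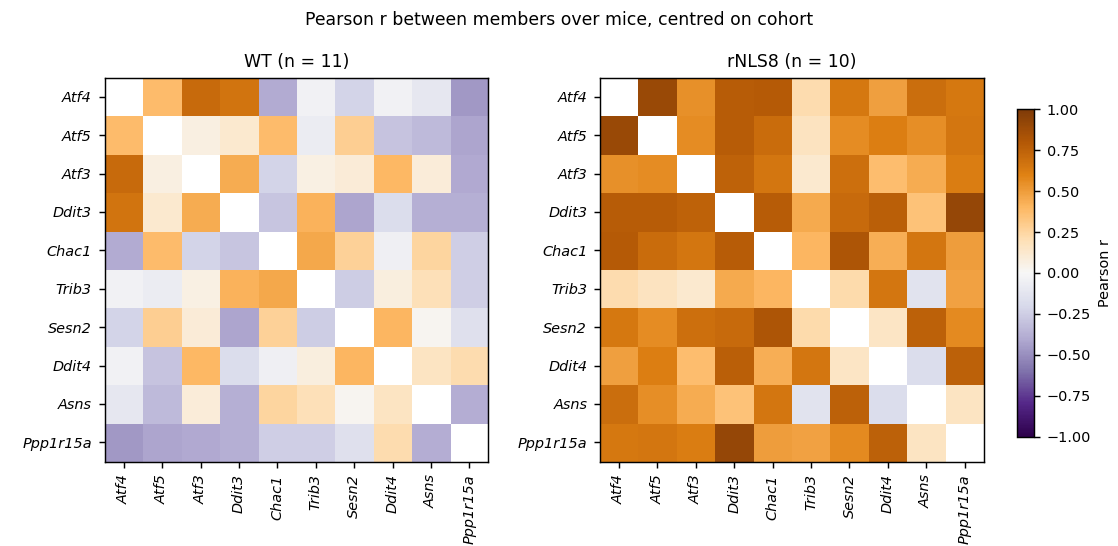
Pearson r of each of the 45 gene pairs (cells of the matrix, genes on both axes, colour for r) over the 11 WT mice and over the 10 rNLS8 mice, on log2 values centred on the cohort. Values in rNLS8 mice are mostly positive with a median of 0.617, and those in WT mice lie on both sides of 0.

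The other genes of the pathway were taken from 9 lists with 126 genes in all outside the 10, each gene counted once, of which 123 were tested. Of these, 61 were higher, 19 were lower and 43 did not pass, with a median log2 fold change of 0.13, against 23.0% and 21.7% called higher and lower among all tested genes. These include 6 relatives of the 10 genes (Trib1, Trib2, Sesn1, Sesn3, Ddit4l and Chac2), which were singled out after their values were seen. Without them 61 of 117 were higher and 16 lower, with a median of 0.17. Upstream, all 4 eIF2α kinases rose. Eif2ak2, which encodes PKR, the kinase activated by double-stranded RNA and itself induced by interferon, had 97.8 to 153 normalised counts in WT and 209 to 524 in rNLS8 mice (log2 fold change 1.31, SE 0.11, edgeR adjusted p = 5.94e-10). The other kinases rose by less: Eif2ak1 (HRI) by 0.23, Eif2ak3 (PERK) by 0.21 and Eif2ak4 (GCN2) by 0.19 on the log2 scale, and these 3 were not called in cohort A alone, where their log2 fold changes were 0.34, 0.31 and 0.31 (edgeR adjusted p = 0.0833, 0.0886 and 0.120). Eif2ak4 was not called in cohort B alone either (0.13, edgeR adjusted p = 0.0717). As the interferon genes rose in the same mice, their values stand beside that of Eif2ak2, and their part in it was not tested.

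Among the 13 genes of eIF2, its exchange factor eIF2B and the phosphatase subunits, 2 rose and 3 fell, with a median log2 fold change of 0.00. The eIF2 subunits Eif2s2 (0.26) and Eif2s1 (0.17) rose, while the subunit Eif2s3x gave -0.23 and did not pass (edgeR adjusted p = 0.0535). The catalytic phosphatase subunits Ppp1cc and Ppp1cb fell (-0.48 and -0.39). Of 11 bZIP partners 6 rose and 2 fell. Cebpd rose by 0.52 and Maff by 0.48 on the log2 scale, while Fos and Jun, which are also activity-dependent genes of neurons, fell by 0.97 and 0.58. Neither Cebpd nor Maff was called in cohort A alone (0.78 and 0.59, edgeR adjusted p = 0.0893 and 0.265). For Cebpd 2 of 10 rNLS8 mice lay above every WT mouse, and for Maff 1 did. The log2 fold change of Cebpd ran from 0.32 to 0.78 over the alternatives. The log2 fold change of Fos was -1.49 in cohort A (edgeR adjusted p = 0.0310), -0.71 in cohort B (adjusted p = 0.110) and -0.84 without rNLS8 mice 1, 8 and 9 (adjusted p = 0.0542), so the call over all mice (adjusted p = 0.00997) was lost in the last 2.

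Of 15 genes of serine, one-carbon, proline and related metabolism, 9 rose and 1 fell, with a median log2 fold change of 0.41. The list also holds Got1, Gpt2, Pck2, Cbs and Cth, of which Gpt2 and Pck2 rose and Got1 was the gene that fell. Pycr1, the mitochondrial enzyme that completes proline synthesis, had the largest fold change among the tested genes of the lists, with 24.6 to 45.2 normalised counts in WT and 157 to 263 in rNLS8 mice (log2 fold change 2.58, edgeR adjusted p = 7.5e-14). The serine hydroxymethyltransferases Shmt1 and Shmt2 rose by 1.82 and 1.16 and the mitochondrial folate enzyme Mthfd2 by 1.43 on the log2 scale. Of the 3 enzymes of serine synthesis, Psph rose by 0.61 with every rNLS8 mouse above every WT mouse, while Phgdh and Psat1 gave log2 fold changes of 0.12 and 0.06 (edgeR adjusted p = 0.0783 and 0.221). Phgdh was called higher in cohort B alone (0.16, edgeR adjusted p = 0.0425), and both were called higher when only library size was used for scaling. Got1, the cytosolic aspartate aminotransferase, fell by 0.51.

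Of the 11 tested amino acid transporters 9 rose and none fell, with a median log2 fold change of 0.48. The cationic transporter Slc7a3 rose by 1.27, the neutral transporter Slc1a4 by 0.84 and the leucine transporter Slc7a5 by 0.78 on the log2 scale. Slc7a11, the cystine transporter, gave -0.17 (edgeR adjusted p = 0.219), and -0.07 without rNLS8 mouse 9. Of 21 genes on the list of tRNA synthetases and tRNA export, 17 rose and 2 fell, with a median of 0.36. Cars and Sars, the cysteine and serine enzymes, rose by 0.79 and 0.72, and the tRNA export factor Xpot and the phenylalanine enzyme subunit Farsb fell by 0.36 and 0.19. In 11 of the 21 every rNLS8 mouse lay above every WT mouse, as in 3.85% of all tested genes.

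**Figure D5:**
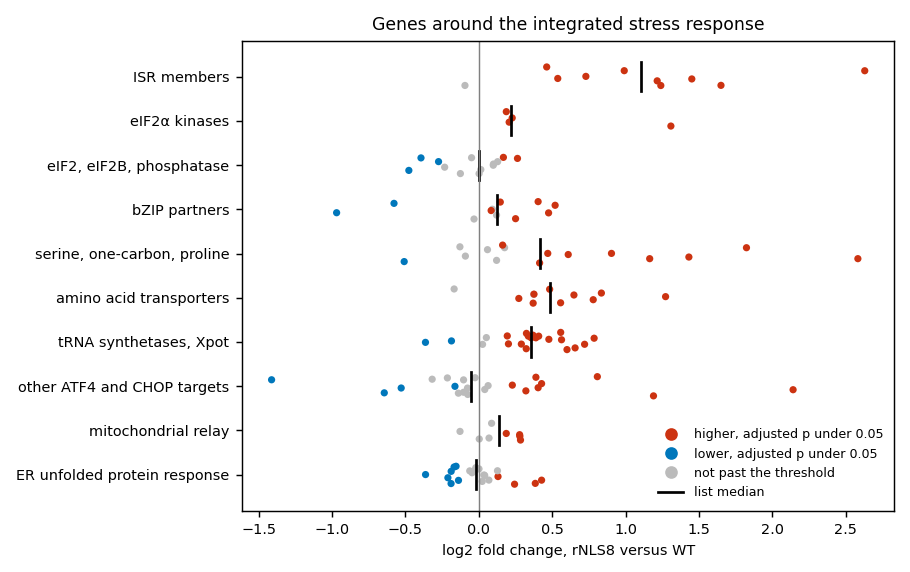
Log2 fold change of rNLS8 over WT mice (horizontal axis) for each tested gene of the 9 pathway lists and of the 10 genes, coloured red where called higher, blue where called lower and grey otherwise, with a line for the median of each list. The medians of the amino acid and tRNA synthetase lists lie to the right of 0, with single genes to the left, and the list of the endoplasmic reticulum unfolded protein response is spread around it.

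On the list of other ATF4 and CHOP targets, 8 of 22 tested genes were higher and 4 lower, with a median log2 fold change of -0.05. The 6 relatives on it supplied 3 of the lower genes and none of the higher. They were singled out after their values were seen, so taking them out could only raise the median. Without them 8 of 16 were higher and 1 lower, with a median of 0.15. Stc2, a secreted glycoprotein, rose by 2.14 and Eif4ebp1, the translation repressor 4E-BP1, by 1.19 on the log2 scale. Of 8 genes of the mitochondrial stress relay 4 rose and none fell, by at most 0.28 on the log2 scale (Hspa9, a mitochondrial chaperone, and Clpp, a matrix protease). The 21 genes of the endoplasmic reticulum unfolded protein response, which is driven by IRE1 and ATF6 as well as PERK, had 4 higher, 7 lower and a median of -0.02. Herpud1 and Syvn1, both of the degradation machinery, rose by 0.43 and 0.38, and Creld2 and Pdia6, which serve protein folding, fell by 0.36 and 0.21. Hspa5, which encodes the chaperone BiP, is counted among the 7 with -0.16 and an edgeR adjusted p of 0.0490, but it was not called under any of the 7 other alternatives run for it, apart from leaving out a mouse (-0.17 to -0.08, adjusted p up to 0.503). When only library size was used for scaling, the median of all genes moved to 0.08 on the log2 scale. Of all called genes 67.9% were then higher, against 51.4% by TMM, and this list had 7 higher and 2 lower. That shift acts on all genes, so these counts do not give the list a direction of its own. The call of each of the 10 genes was the same under both scalings.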

How the data were processed

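Raw gene counts were deposited by the authors as 1 table for all 21 neocortex samples. The authors' methods give poly-A mRNA libraries, 100 bp paired-end reads, alignment to GRCm38 and DESeq2, the submitters' processing notes name HISAT, HISAT2, Bowtie, Bowtie2, RSEM and mm10, and the counting program is not given in the sources used here. Reads carry no molecular identifiers. The 2553 rows that repeat a symbol, none of them of the 10 genes, held 4.11% of the counts and were kept. Genes were filtered with filterByExpr (minimum count 10, minimum total 15), which left 18248, normalised by TMM and tested in edgeR 4.0.16 (R 4.3.3) by the quasi-likelihood test with genotype and cohort, with Benjamini-Hochberg adjustment over all genes and a threshold of 0.05. Mice numbered 8 and above within a genotype belonged to cohort A, and replicates were numbered in accession order. For normalised counts, each count was divided by the effective library size of its mouse and put on the scale of the average library. The log2 values used for correlations were log2 CPM with a prior count of 2, and permutations numbered 100000. DESeq2 1.42.0, other scalings and filters, each cohort alone, Xist as a covariate and each mouse left out were alternatives for the 10 genes. The difference between cohorts was refitted without each of the 10 rNLS8 mice and under 2 other alternatives, and the pathway lists without rNLS8 mouse 9 and under 7 other alternatives. The rule for naming genes took the 10 genes, the 4 eIF2α kinases, Tardbp, marker genes and, from each pathway list, up to 2 genes called higher and up to 2 called lower with the largest log2 fold change. Shmt2, Mthfd2, Phgdh, Psat1, Psph, Slc7a5, Slc7a11, Hspa5, Trib2, Sesn1, Sesn3, Chac2, Fgf21 and Gdf15 fall outside it and were chosen after their values were seen. The genes and lists were chosen with earlier results of these data known. The test was also run on simulated counts with the same dispersion for all genes and no cohort effect. These data differ in both, so that run does not show how the test behaves on them. No pair of libraries of a genotype agreed within sampling noise. Promoter sequences were read from RefSeq windows of 300 bases, and transcripts were searched against each other with blastn 2.17.0 for copies of at least 95% identity over 100 bases, which found none for the 10 genes.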

Additional observations from a re-analysis of the deposited data

Results flagged for a closer look

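In the rNLS8 group of 10 mice, 3 of 55 genes had a mouse that stood apart by Dixon's test (gap over range above its 95% critical value), and chance gives about 5% of genes. The WT group of 11 mice was not searched. Cebpd was highest in rNLS8 mouse 8 (145 normalised counts, next mouse 96.8, lowest 49.9, ratio 0.504). Clpp was highest in rNLS8 mouse 9 (1014 normalised counts, next mouse 807, lowest 680, ratio 0.621). Sesn3 was lowest in rNLS8 mouse 9 (178 normalised counts, next mouse 581, highest 949, ratio 0.522). None of the 10 integrated stress response genes met this criterion.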

How the results depend on the processing

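Of the 10 genes, 9 were higher and none was lower whichever mouse was left out. Under the 12 other alternatives the number higher was 7 to 9, with 8 in cohort A alone and 7 where at least 10 counts were required in every mouse, a filter that left Atf3 and Trib3 untested. The log2 fold change of Atf3 ran from 2.50 to 2.72 with a mouse left out and was 2.18 in cohort B. Leaving out rNLS8 mice 1, 8 and 9 together, and with it its list values, was chosen after seeing the data. In cohort A alone the number higher was 1 for the kinases, 0 for the eIF2 list, 0 for the bZIP partners, 5 for the other targets, 1 for the mitochondrial relay and 2 for the endoplasmic reticulum list, and the number lower was 0 for the serine list, 1 for the tRNA synthetases and 0 for the endoplasmic reticulum list. That cohort had fewer mice. In cohort B alone the number lower was 1 for the bZIP partners and 2 for the serine list. Without rNLS8 mice 1, 8 and 9 the number lower was 1 for the bZIP partners and 3 for the endoplasmic reticulum list, and without rNLS8 mouse 9 it was 1 for the mitochondrial relay. With library size only, the eIF2 list had 5 higher and the endoplasmic reticulum list 7 higher and 2 lower, 67.9% of all called genes were higher against 51.4% by TMM, and Sesn1 was 0.0017, as it was 0.0056 in cohort A. With an rNLS8 mouse left out (WT mice were not left out there), the difference between cohorts turned for Atf4 (-0.072 to 0.13), Trib3 (-0.22 to 0.22), Asns (-0.0087 to 0.16), Ddit4 (-0.031 to 0.27) and Ppp1r15a (-0.035 to 0.31). Without the relatives of the 10 genes, also chosen after seeing the data, the other targets had 1 lower. The cause of these changes was not tested. No paired analysis was possible because mouse numbers belong to 1 mouse each and replicates were numbered in accession order. Sex was not in the labels, and the low counts of Trib3 and Atf3 limit their precision.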

Other observations

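Relatives of Trib3, Sesn2 and Chac1, which rose, and of Ddit4, which did not pass the test, were singled out after their values were seen, and none of those named here was called higher. Ddit4l, the paralog of Ddit4, had 369 to 578 normalised counts in WT mice with a median of 520, and 152 to 241 in rNLS8 mice with a median of 189. Every rNLS8 mouse lay below every WT mouse, and Ddit4l fell by 1.41 on the log2 scale (SE 0.092, edgeR adjusted p = 1.36e-11). The pseudokinase genes Trib1 and Trib2, relatives of Trib3, fell by 0.64 and 0.53 (edgeR adjusted p = 0.000211 and 4.14e-06). Sesn1 and Sesn3, relatives of Sesn2, gave log2 fold changes of -0.08 and -0.32 (edgeR adjusted p = 0.172 and 0.134), with -0.18 for Sesn3 without rNLS8 mouse 9, and Chac2 gave -0.14 (edgeR adjusted p = 0.118).

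The secreted factors Fgf21 and Gdf15, known as circulating markers of the response, were too low to be tested. Fgf21 had 6 raw counts over the 11 WT mice, 7 of which had none, and 86 over the 10 rNLS8 mice, of which 29 were in 1 mouse. Gdf15 had 11 raw counts over WT and 29 over rNLS8 mice. These totals cover counting error only.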
